A study of Mus musculus with 6 samples.

Results

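The 7 leukocyte chemokine receptors, Ccr1, Ccr2, Ccr3, Ccr7, Cx3cr1, Cxcr3 and Ccrl2, were followed in tumor-associated macrophages (TAMs) from mice with and without the C5a receptor. They were chosen by name, and each of the 7 matched 1 row of the deposited matrix of 56980 genes. ID8 cells, a mouse ovarian epithelial cancer line, had been injected into the peritoneal cavity of WT C57BL/6 females or of C57BL/6-background C5aR-/- females, bought at 6 to 8 weeks of age. Tumors were taken 2 months later, and live CD45+CD11b+Ly6G-F4/80+ cells were sorted as TAMs and sequenced after poly(A) selection. There were 3 libraries per group. The C5aR-/- mice lacked the receptor in every cell type of the host and not only in macrophages, while the tumor cells were the same line in both groups. The study counts its sequenced replicates in mice, and more per group than the 3 libraries analysed here, but the labels do not tie a library to a mouse. The p-values therefore measure the spread between these libraries, which may in part be technical. The comparison asks whether the chemokine receptor transcripts of TAMs differed between mice with and without C5aR.

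Chemokine receptors are G protein-coupled receptors that couple mainly to Gi proteins and steer leukocytes along gradients of secreted chemokines. On monocytes and macrophages, CCR2 is known for the exit of classical monocytes from bone marrow, CX3CR1 for patrolling monocytes and many resident macrophages, and CCR1 for inflammatory recruitment. CCR7 is best known on migrating dendritic cells and lymphocytes, CXCR3 on activated T and NK cells, and CCR3 on eosinophils. CCRL2 is an atypical member that binds the chemoattractant chemerin without signaling through G proteins.

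C5ar1, the deleted gene, was listed at 86.5, 37.3 and 16.2 TPM, the length-scaled share of a library's transcripts, in the 3 WT libraries and at 0.38, 0.11 and 0.05 TPM in the 3 C5aR-/- libraries. The libraries therefore matched their labels. Genes of the macrophage list (10 genes, Adgre1 and Csf1r among them) summed to 1187 to 3154 TPM in WT and 1434 to 4007 TPM in C5aR-/- libraries, so the sorted type was present throughout. Other cells were present too: Krt8, a keratin of epithelial and mesothelial cells, stood at 455 TPM or more in every library. Neutrophil genes, whose cells the Ly6G- gate should remove, summed to 648 to 2479 TPM in WT and 32.0 to 424 TPM in C5aR-/- libraries. Mast cell genes summed to 169 to 200 TPM in WT and 68.5 to 90.1 TPM in C5aR-/- libraries, but the genes of this list ran in opposite directions. Kit, a receptor that other cells also carry, made up most of the C5aR-/- sums and was higher there (30.6 TPM in WT and 69.3 TPM in C5aR-/- on average). The other 6 were all lower at the unadjusted threshold defined further on, such as the protease genes Cpa3 (19.2 and 0.72 TPM) and Tpsb2 (16.8 and 0.46 TPM), and Mcpt4 was listed at 0 in 2 C5aR-/- libraries. In such bulk samples, fewer cells of a type and less RNA per cell cannot be told apart.

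Of the 7 receptor genes, 5 lie on mouse chromosome 9 (GRCm38, GENCODE M21 annotation). Ccr1 (chr9:123962124-123968692, minus strand), Ccr3 (chr9:124021972-124031689, plus strand) and Ccr2 (chr9:124101950-124113557, plus strand) fall in a run of neighboring coding genes that are all chemokine receptors. The run includes, in order, Cxcr6, Xcr1, Ccr1, Ccr1l1, Ccr3 and Ccr2. Ccrl2 (chr9:111054486-111057519) and Cx3cr1 (chr9:119901616-120069879) lie on the minus strand farther from this run. Ccr7 (chr11:99144196-99155077) and Cxcr3 (chrX:101731535-101734269) are on other chromosomes, both on the minus strand. All 7 are protein-coding.

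Upstream sequence is shown for Ccr1 and Ccrl2, the pair of receptors whose levels ran closest to the macrophage genes in WT libraries (described further on). The windows come from RefSeq (GRCm38.p6), read along the minus strand and ending just before the most upstream annotated start. Ccr1 covers chr9:123968693-123968942 and Ccrl2 covers chr9:111057520-111057768, and neither window overlaps an annotated exon. Capitals mark matches on either strand to 3 motifs: GAGGAA, the core bound by the myeloid factor PU.1, GGG followed by any 5 bases and CC, a kappaB form, and TGTGGT, bound by RUNX factors.
Ccr1: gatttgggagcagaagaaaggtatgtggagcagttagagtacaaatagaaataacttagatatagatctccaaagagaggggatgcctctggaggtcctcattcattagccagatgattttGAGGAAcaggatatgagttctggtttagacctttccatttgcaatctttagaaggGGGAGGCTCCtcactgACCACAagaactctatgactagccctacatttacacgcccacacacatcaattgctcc
Ccrl2: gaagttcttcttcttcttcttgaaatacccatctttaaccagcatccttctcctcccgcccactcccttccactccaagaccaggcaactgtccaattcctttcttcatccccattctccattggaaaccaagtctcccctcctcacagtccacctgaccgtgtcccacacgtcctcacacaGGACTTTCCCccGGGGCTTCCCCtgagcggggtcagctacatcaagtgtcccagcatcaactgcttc
The Ccr1 window held a match to each of the 3 motifs, and the Ccrl2 window held kappaB matches only. They form separate stretches, the upstream one a match on 1 strand and the downstream one made of matches that overlap and are read on both strands. Over windows of the same kind at 27025 mouse promoters, GAGGAA was found in 23.1%, the kappaB form in 45.4% and TGTGGT in 14.2%. Of the 6 receptors with a window, 3 held GAGGAA, 5 held the kappaB form and 3 held TGTGGT, and Ccr7 had no entry. The windows of Cx3cr1, Ccr2 and Cxcr3 overlap annotated exons by 250, 233 and 122 bases, so these counts are not of upstream sequence alone. These are matches of letters and were not tested as binding sites.

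Levels of the 7 receptors spanned a wide range. Over the 6 libraries, mean TPM was 114 for Ccrl2, 26.8 for Ccr1, 24.4 for Ccr7, 18.3 for Ccr2, 16.2 for Cx3cr1, 2.44 for Cxcr3 and 0.745 for Ccr3. TPM is scaled by transcript length, so these levels can be set side by side between genes. Ccrl2 alone carried 60.2% of the summed receptor TPM in WT and 52.8% in C5aR-/- TAMs. Neighbors in this order were compared within libraries by an exact sign-flip test on log2(TPM + 1), adjusted over 6 pairs, for which the smallest unadjusted p that 6 libraries allow is 0.03125. Ccrl2 was above Ccr1, Cx3cr1 above Cxcr3 and Cxcr3 above Ccr3 in 6 of 6 libraries (exact test, adjusted p = 0.0625 for each). Ccr1 and Ccr7 (higher in 4 of 6 libraries, exact test, adjusted p = 0.4375), Ccr7 and Ccr2 (4 of 6, adjusted p = 0.4375, exact test) and Ccr2 and Cx3cr1 (5 of 6, adjusted p = 0.422, exact test) did not differ beyond their spread. The middle of the order was not the same in both groups. By mean TPM, Cx3cr1 ranked 5 in WT TAMs, below Ccr2, and 4 in C5aR-/- TAMs, above Ccr2. This rested on C5aR-/- replicate 1, with 40.7 TPM of Cx3cr1 and 16.3 TPM of Ccr2. Ccr2 was the higher in C5aR-/- replicate 2 (25.2 and 21.7 TPM) and replicate 3 (16.3 and 14.2 TPM). Ccr1 and Ccr7 also changed places, from ranks 2 and 3 in WT to 3 and 2 in C5aR-/-. The Cx3cr1 share of the summed receptor TPM was 3.79% in WT and 11.5% in C5aR-/-.

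**Figure D1:**
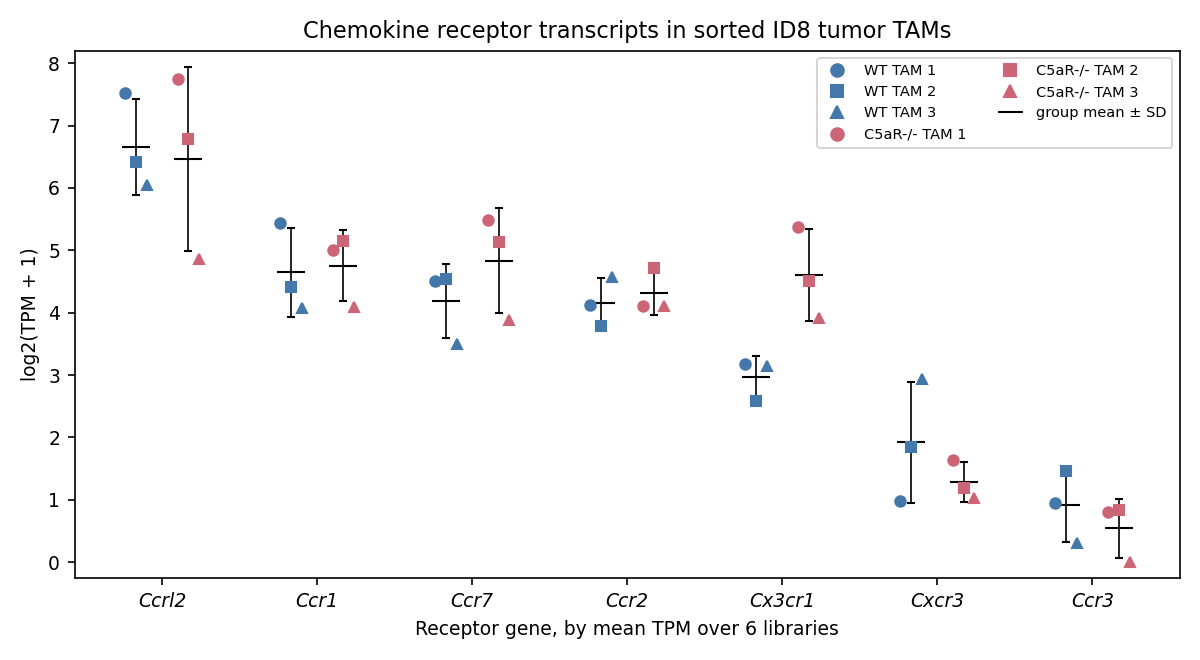
Level of each receptor as log2(TPM + 1) in the 3 WT (blue) and 3 C5aR-/- (red) TAM libraries, with marker shape giving the library number and black bars the group mean and SD (n = 3). Cx3cr1 is the receptor whose 3 C5aR-/- libraries all lie above its 3 WT libraries, and for the other 6 the groups overlap.

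Differences between groups were tested with limma on log2(TPM + 1) over 14776 genes, those that reached 1 TPM in 3 or more libraries. A gene was counted at an adjusted p under 0.05 with at least a 2-fold change of TPM + 1, or, as the study's methods name both, where the unadjusted p fell below 0.05 at the same fold. Of the 7 receptors, 6 passed the filter and Ccr3 did not. At the adjusted threshold, 0 of the 6 receptors and 0 of all genes passed (0%), the smallest adjusted p of any gene being 0.0666. At the unadjusted threshold 1 of the 6 passed, against 4.96% of all genes tested, and it passed on the higher side, where 2.13% of all genes did (lower side, 2.84%). That receptor, Cx3cr1, was also the 1 of 6 whose groups did not overlap, a feature of 21.3% of all genes tested (8.84% with C5aR-/- higher and 12.5% with C5aR-/- lower). By sign alone 4 of the 6 were higher and 2 lower, and 55.5% of all genes tested were lower. The median log2 difference of the 6 (C5aR-/- minus WT) was 0.13, beside -0.048 for all genes tested.

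Cx3cr1, the receptor of the membrane-bound chemokine fractalkine, was higher in C5aR-/- TAMs. Its level was 8.08, 5.0 and 7.83 TPM in the WT libraries and 40.7, 21.7 and 14.2 TPM in the C5aR-/- libraries. The lowest C5aR-/- library stood above the highest WT library, and the C5aR-/- libraries were more spread out than the WT libraries. Its mean was 25.5 ± 13.7 TPM in C5aR-/- and 6.97 ± 1.71 TPM in WT TAMs (SD, n = 3 each), a ratio of 3.66. As log2(TPM + 1), a scale that compresses changes of weakly expressed genes, the difference was 1.63 (SE 0.39, 95% CI 0.71 to 2.56, limma, unadjusted p = 0.00437, adjusted p = 0.162). Among all genes tested, 2.69% had a smaller p. An exact permutation test of the 2 groups gave p = 0.1, the smallest p that 3 against 3 libraries allow. Leaving out the highest C5aR-/- library, replicate 1, gave a difference of 1.24.

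The Cx3cr1 locus is unusual in its annotation: one long transcript model spans 9 other genes. Of these, Csrnp1, a nuclear protein gene on the same strand, was the most abundant and was listed at 270, 195 and 75.7 TPM in WT and 220, 173 and 73.7 TPM in C5aR-/- libraries. Its groups overlapped (log2 difference -0.17, SE 0.57, limma adjusted p = 0.919), and in each of the other 8 the groups overlapped as well. Those of the 8 that did not pass the filter were listed at 0.26 TPM or less in every library, where overlap carries little information. Whether counting used the strand of the reads is not given in the sources used here.

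Cx3cr1 was read beside the genes of nonclassical monocytes, the blood cells that carry most CX3CR1. Of the 6 genes of that list, 5 passed the filter, 2 were higher and 1 was lower at the unadjusted threshold. Ace, the angiotensin-converting enzyme, was listed at 4.72, 4.49 and 6.27 TPM in WT and 10.4, 48.9 and 33.4 TPM in C5aR-/- libraries (log2 difference 2.14, SE 0.52, limma adjusted p = 0.167). Treml4, a receptor of the TREM family, was listed at 1.47, 2.27 and 3.76 TPM in WT and 11.7, 11.2 and 8.43 TPM in C5aR-/- libraries (log2 difference 1.75, SE 0.29, limma adjusted p = 0.0930). Both had groups that did not overlap, as Cx3cr1 did. Nr4a1, a nuclear receptor that these monocytes need, ran the other way, at 349, 274 and 227 TPM in WT and 89.3, 164 and 34.5 TPM in C5aR-/- libraries (log2 difference -1.79, SE 0.53, limma adjusted p = 0.224). The summed list, dominated by Nr4a1, ranged from 274 to 370 TPM in WT and from 91.6 to 246 TPM in C5aR-/- libraries, and no gene of it was listed at 0. Of the 8 genes of large peritoneal macrophages, the resident cells of the cavity, 7 were lower by sign. The median log2 difference of the 8 was -1.22. At the unadjusted threshold 2 were lower, Icam2 (log2 difference -2.41, SE 0.68, limma adjusted p = 0.209) and Timd4 (-1.49, SE 0.58, limma adjusted p = 0.318). Gata6, the most abundant of the list on average (104.9 TPM in WT and 93.4 TPM in C5aR-/-), had a log2 difference of -0.16 (SE 0.15, limma adjusted p = 0.649). Adgb had one of -0.010, and Vsig4, the 1 higher by sign, one of 0.70. The summed level of the 8 genes ranged from 190.4 to 371 TPM in WT and from 119.8 to 204 TPM in C5aR-/- libraries, and none was listed at 0. The part of either cell type in the Cx3cr1 difference was not tested.

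Ccr2, the receptor of the monocyte chemoattractant CCL2, was listed at 16.4, 12.8 and 22.7 TPM in WT and 16.3, 25.2 and 16.3 TPM in C5aR-/- libraries. The groups overlapped, with a WT library and a C5aR-/- library both near the top of the range. The means were 17.3 ± 5.03 TPM for WT and 19.2 ± 5.14 TPM for C5aR-/- TAMs (SD, n = 3 each), and the log2 difference was 0.15 (SE 0.27, 95% CI -0.49 to 0.79, limma adjusted p = 0.831). The interval reaches neither a 2-fold rise nor a 2-fold drop. The classical monocyte list, the cells in which Ccr2 is highest in blood, summed to 360 to 412 TPM in WT and 53.4 to 322 TPM in C5aR-/- libraries, and 2 of its 8 genes, Ly6c2 and Hp, were lower at the unadjusted threshold. C5aR-/- replicate 3 had 53.4 TPM of these genes and 16.3 TPM of Ccr2. The part of classical monocytes in the Ccr2 values was not tested.

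Ccr1, a receptor of CCL3, CCL6 and CCL9 among others, was listed at 42.6, 20.4 and 15.9 TPM in WT and 31.1, 34.6 and 16.1 TPM in C5aR-/- libraries. Each group held a library near 16 TPM and at least 1 above 30 TPM, so the ranges coincided almost fully. The means were 26.3 ± 14.3 and 27.3 ± 9.81 TPM (SD, n = 3 each), with a log2 difference of 0.10 (SE 0.42, 95% CI -0.91 to 1.12, limma adjusted p = 0.934). The sign of this difference turned when any of 4 libraries was left out, so no direction can be given.

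Ccrl2, the most abundant of the receptors, was listed at 183, 84.4 and 64.9 TPM in WT and 213, 110 and 28.1 TPM in C5aR-/- libraries. The highest and the lowest value both came from C5aR-/- libraries. The means were 111 ± 63.3 TPM for WT and 117 ± 92.8 TPM for C5aR-/- TAMs (SD, n = 3 each). The log2 difference was -0.20 (SE 0.75, 95% CI -1.98 to 1.59, limma adjusted p = 0.927), an interval that allows a change of more than 2-fold either way. It was 0.61 without C5aR-/- replicate 3 and 0.24 without WT replicate 1, so its direction rested on single libraries. With the macrophage index, defined further on, as a covariate it was -0.72 (limma, unadjusted p = 0.0755, adjusted p = 0.317).

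Ccr7, the receptor of the lymph node chemokines CCL19 and CCL21, was listed at 21.7, 22.4 and 10.3 TPM in WT and 43.8, 34.2 and 13.8 TPM in C5aR-/- libraries. The top 2 values belonged to C5aR-/- libraries, and the third C5aR-/- library fell between the WT values. Means were 18.1 ± 6.79 TPM in WT and 30.6 ± 15.3 TPM in C5aR-/- TAMs (SD, n = 3 each), and the log2 difference was 0.65 (SE 0.48, 95% CI -0.48 to 1.79, limma adjusted p = 0.574). Without C5aR-/- replicate 3 the difference was 1.13 and passed the unadjusted threshold (limma, unadjusted p = 0.0208, adjusted p = 0.329). That library also held the least RNA of B cell genes, cells that carry CCR7: their sum was 149, 182 and 37.1 TPM in WT and 193, 63.5 and 10.3 TPM in C5aR-/- libraries. In both groups the third library was lowest for Ccr7, for B cell genes and also for the macrophage index. Between groups the order differed: C5aR-/- replicate 2 had 34.2 TPM of Ccr7 beside 63.5 TPM of B cell genes. WT replicate 2 had 22.4 TPM of Ccr7 beside 182 TPM of B cell genes. Of the 6 B cell genes, 0 passed the unadjusted threshold, and none was listed at 0. Dendritic cell genes summed to 57.5 to 69.3 TPM in WT and 80.7 to 108 TPM in C5aR-/- libraries, with 0 of 8 past that threshold. By sign 6 were higher and 2 lower, and in each of the 8 the groups overlapped. Clec10a was listed at 38.9 TPM in C5aR-/- replicate 1 and Fscn1 at 43.8 TPM in C5aR-/- replicate 3, so different genes raised these sums. The part of either cell type in the Ccr7 values was not tested.

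Cxcr3, the receptor of CXCL9 and CXCL10, was low. It was listed at 0.98, 2.59 and 6.62 TPM in WT and 2.11, 1.28 and 1.04 TPM in C5aR-/- libraries. WT libraries held both the highest and the lowest value. The means were 3.40 ± 2.91 TPM in WT and 1.48 ± 0.56 TPM in C5aR-/- TAMs (SD, n = 3 each), with a log2 difference of -0.63 (SE 0.50, 95% CI -1.82 to 0.55, limma adjusted p = 0.604). Without WT replicate 1 it was -1.10 and passed the unadjusted threshold (limma, unadjusted p = 0.0409, adjusted p = 0.377). Without WT replicate 3, the library with the most Cxcr3 and the most T cell RNA, it was -0.13 (limma, unadjusted p = 0.744, adjusted p = 0.927). T cell genes summed to 55.8, 98.4 and 122 TPM in WT and 101, 57.5 and 24.3 TPM in C5aR-/- libraries. The 2 libraries with the most Cxcr3, WT 3 and WT 2, were among the 3 with the most T cell RNA. Of the 10 T cell genes, 1 was lower at the unadjusted threshold, Cd2, and none was listed at 0. NK cell genes summed to 5.20 to 15.6 TPM in WT and 9.33 to 15.9 TPM in C5aR-/- libraries. In C5aR-/- replicate 3, which had the highest sum, Klra4 alone was listed at 10.9 TPM, and this gene did not pass the filter. The 3 NK cell genes that did were all lower by sign, and 0 passed the unadjusted threshold. The part of lymphocyte RNA in the Cxcr3 values was not tested.

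Ccr3, the eotaxin receptor, was at the edge of what the files list. Its values were 0.94, 1.77 and 0.24 TPM in WT and 0.74 and 0.78 TPM in the first 2 C5aR-/- libraries, and the third was listed at 0. The groups overlapped (exact permutation test, p = 0.4), and no fold is given against a library listed at 0. Of the 7 eosinophil genes, 3 passed the filter, and at the unadjusted threshold 1 was lower, Prg2, and 1 higher, Ear2. Prg2, which encodes a granule protein, stood at 3.81, 6.0 and 2.20 TPM in WT and 1.19, 1.44 and 1.06 TPM in C5aR-/- libraries, while Epx, the eosinophil peroxidase gene, was at 0.77, 0.60 and 0.37 TPM in WT and was listed at 0 in all 3 C5aR-/- libraries. Ear2, a ribonuclease gene also expressed in other myeloid cells, stood at 35.4, 24.6 and 14.6 TPM in C5aR-/- libraries against 3.46, 1.38 and 1.89 TPM in WT. With Ear2 in it, the 7-gene eosinophil list summed to 6.05 to 13.3 TPM in WT and 16.6 to 38.6 TPM in C5aR-/- libraries. The part of eosinophils in the Ccr3 values was not tested.

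**Figure D2:**
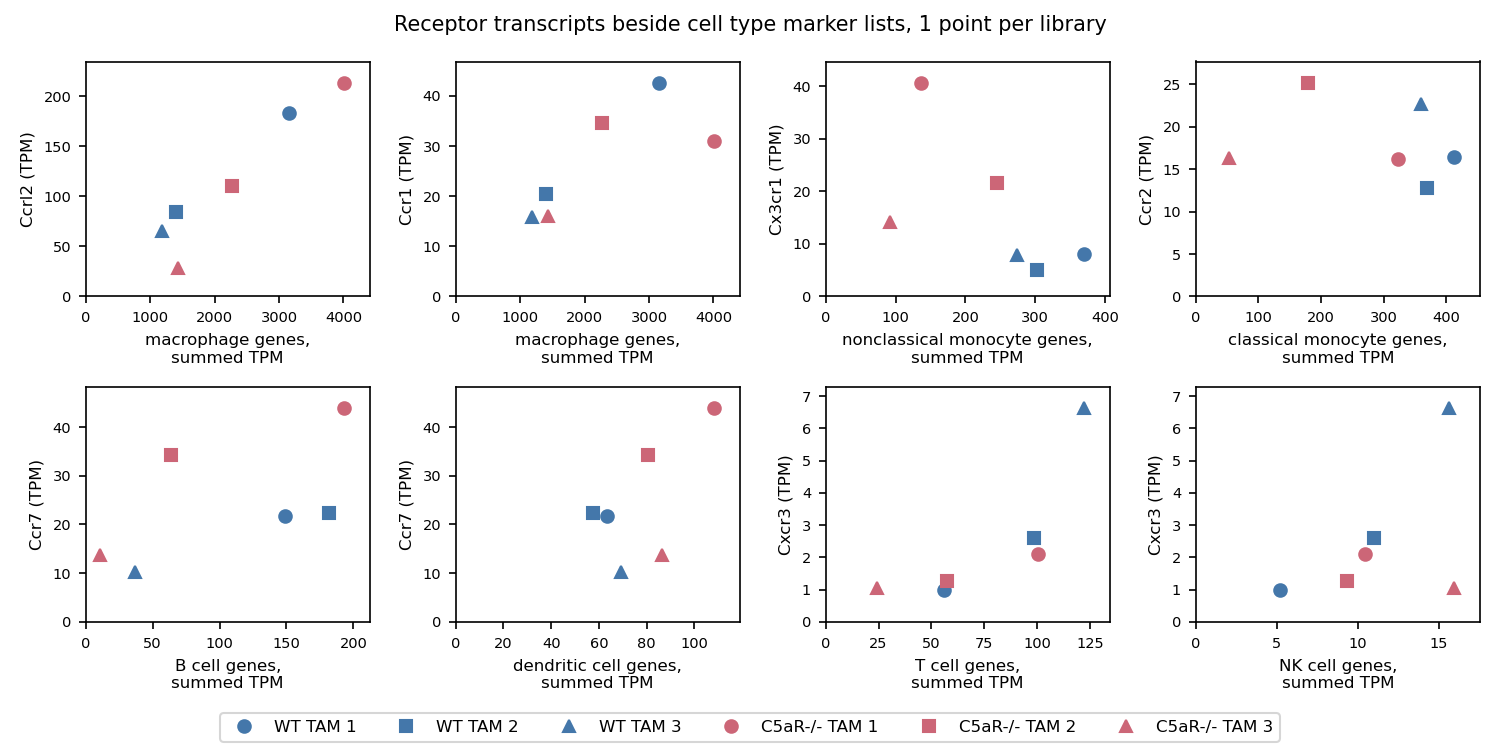
Receptor level (TPM, vertical axis) against the summed TPM of a cell type's marker genes (horizontal axis) in each of the 6 TAM libraries, WT in blue and C5aR-/- in red. Ccrl2 is highest in the 2 libraries with the most macrophage RNA. The 3 C5aR-/- libraries lie above the WT libraries for Cx3cr1 and to their left for the nonclassical monocyte sum. That sum is mostly Nr4a1, which was lower in C5aR-/- TAMs. Ace and Treml4 of the same list were higher there, and in the remaining genes of the list the groups overlapped.

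Because macrophage RNA varied between libraries, each receptor was also expressed relative to a macrophage index, the mean log2(TPM + 1) of the 10 macrophage genes in the same library. The index was 7.31, 6.16 and 5.84 in WT and 7.53, 6.77 and 6.10 in C5aR-/- libraries, and the groups did not differ beyond their spread (exact permutation test, p = 0.6). In both groups it was highest in the first library and lowest in the third. The values that follow are receptor minus index, on the log2 scale.

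Ccrl2 and Ccr1 were the receptors with the steadiest values in WT TAMs on this scale. Ccrl2 stood at 0.21, 0.26 and 0.21 in the WT libraries and at 0.21, 0.026 and -1.24 in the C5aR-/- libraries. Of the 6 libraries, 5 were thus close together, and C5aR-/- replicate 3 stood apart. Ccr1 stood at -1.87, -1.74 and -1.76 in WT and at -2.53, -1.61 and -2.00 in C5aR-/- libraries, so the SD within WT was 0.070 and within C5aR-/- 0.46. Cx3cr1 showed the opposite arrangement, at -4.13, -3.57 and -2.69 in WT and at -2.15, -2.26 and -2.18 in C5aR-/- libraries. Its C5aR-/- libraries were nearly equal once set against macrophage RNA (SD 0.060) and all lay above the WT libraries, which were spread out (SD 0.73). The Cx3cr1 difference on this scale was 1.27 (exact permutation test, p = 0.1, and 0.583 after adjustment over the 7 receptors). The other 6 receptors had groups that overlapped on this scale (exact permutation tests, p from 0.3 to 0.9).

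**Figure D3:**
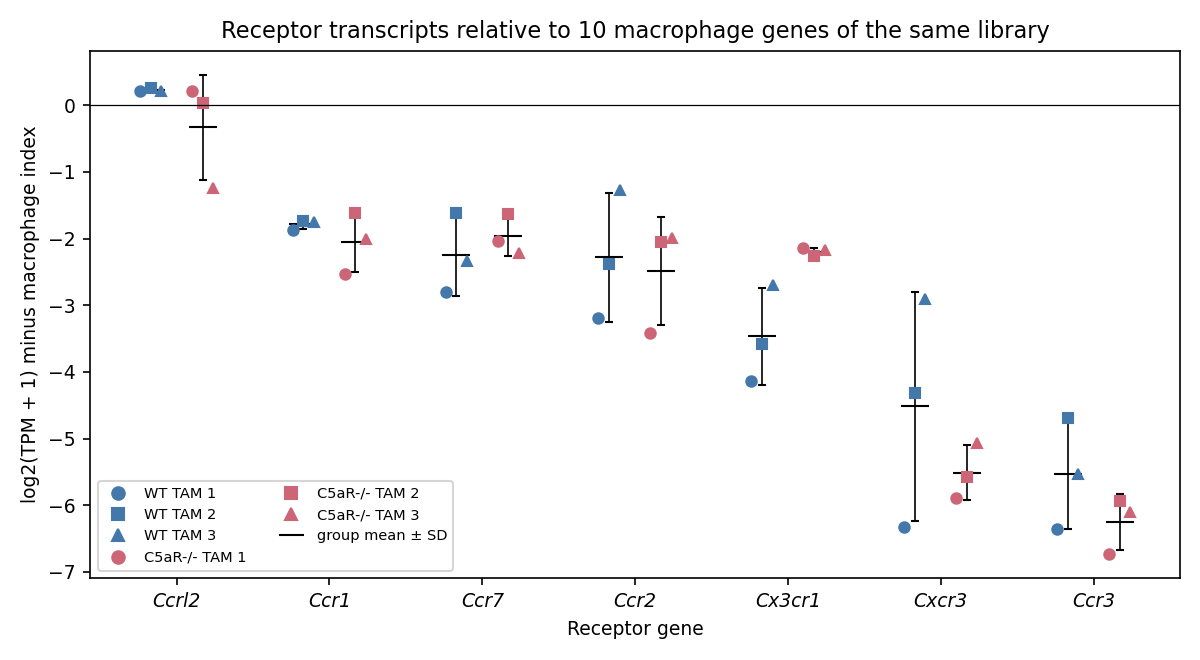
Receptor level minus the macrophage index of the same library (vertical axis, log2 units) for each receptor, with WT TAM libraries in blue, C5aR-/- in red and black bars for the group mean and SD (n = 3). The 3 C5aR-/- libraries of Cx3cr1 lie within -2.26 to -2.15, above the highest WT library at -2.69, and Ccrl2 is at -1.24 in C5aR-/- library 3.

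The remaining chemokine receptors give the setting for these values. Of 19 others, 10 passed the filter, and at the unadjusted threshold 0 were higher and 2 were lower. Over all genes tested, 2.13% were higher and 2.84% lower at this threshold. The median log2 difference of the 10 was -0.23. Cxcr2, the neutrophil receptor, was listed at 2.23, 8.80 and 4.20 TPM in WT and 0.30, 1.04 and 0.21 TPM in C5aR-/- libraries (log2 difference -1.89, SE 0.45, limma adjusted p = 0.162). It moved with the neutrophil genes, of which 5 of the 7 tested were lower at the same threshold and 0 higher. The part of neutrophils in the Cxcr2 difference was not tested. Cxcr6, carried by T and NK cells, was listed at 2.29, 3.21 and 11.5 TPM in WT and 1.29, 1.23 and 1.79 TPM in C5aR-/- libraries (log2 difference -1.20, SE 0.50, limma unadjusted p = 0.0493, adjusted p = 0.345). Its call was lost in 8 of 13 alternatives, among them the omission of any library but WT replicate 1, and without WT replicate 3 the difference was -0.62. Ackr4, a scavenging receptor for CCL19 and CCL21, was listed at 8.41, 8.16 and 13.2 TPM in WT and 5.44, 7.34 and 3.44 TPM in C5aR-/- libraries. Its log2 difference was -0.79 (SE 0.30, limma adjusted p = 0.318). In Cxcr2, Cxcr6 and Ackr4, 3 of the 10 tested (30%), the groups did not overlap, with C5aR-/- lower. The shares over all genes tested were 21.3% in either direction and 12.5% with C5aR-/- lower. Some receptors under the filter, at 1.13 TPM or less in every library, were also apart. C5aR-/- was higher in Ccr8 and Ccr1l1 and lower in Cxcr1.

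Among the more abundant of the others, Cxcr4, the CXCL12 receptor, was listed at 26.8, 24.0 and 21.1 TPM in WT and 106, 41.2 and 18.1 TPM in C5aR-/- libraries. Its highest and lowest values were both in C5aR-/- libraries (log2 difference 0.83, SE 0.57, limma adjusted p = 0.553). Cmklr1, the signaling chemerin receptor, was at 40.2, 15.7 and 10.3 TPM in WT and 29.3, 20.9 and 12.1 TPM in C5aR-/- libraries (log2 difference 0.052, SE 0.52, limma adjusted p = 0.973). Ackr3, a scavenging receptor for CXCL12, had a log2 difference of 0.33 (SE 0.38, limma adjusted p = 0.733). Cxcr5, a follicular homing receptor of B cells, had one of -0.75 (SE 0.69, limma adjusted p = 0.661). These 4 did not pass either threshold. The difference between Cx3cr1 and any other receptor was not tested.

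**Figure D4:**
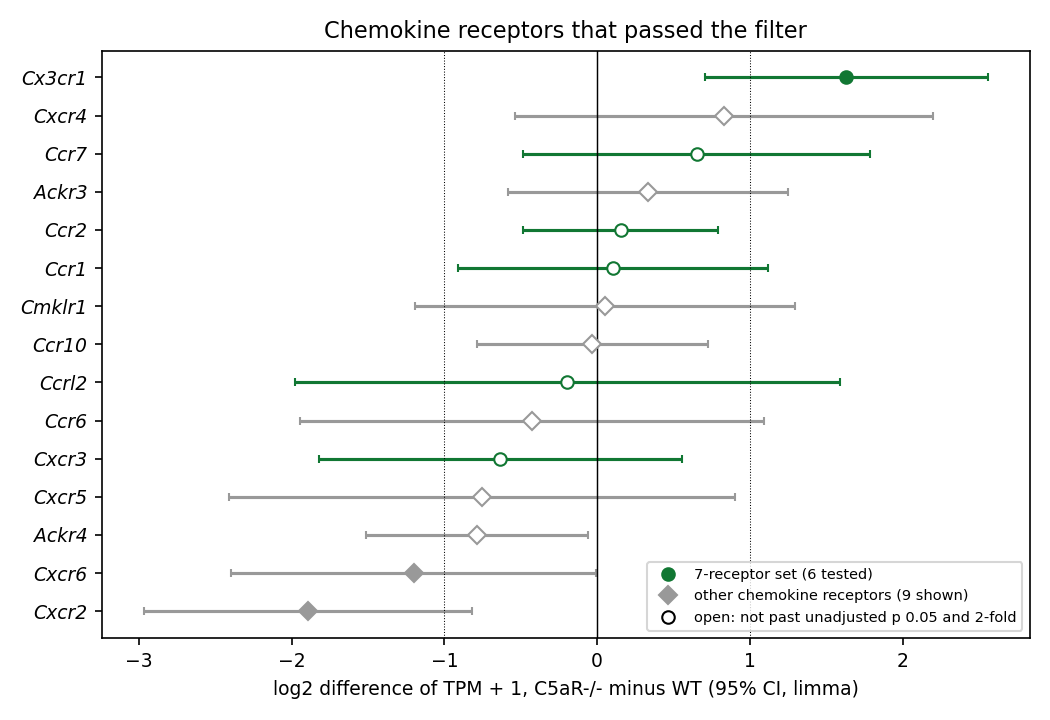
Log2 difference of TPM + 1 (C5aR-/- minus WT, horizontal axis) with its 95% confidence interval from limma for the 6 tested receptors of the set (green) and 9 of the 10 other tested chemokine receptors (gray), filled where the unadjusted threshold was passed and with dotted lines at a 2-fold change. Cx3cr1 at 1.63 is the filled point on the right, and Cxcr6 at -1.20 and Cxcr2 at -1.89 are the filled points on the left.

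Ligands of the 7 receptors were followed by a list of 18 genes, of which 17 were in the matrix and 12 passed the filter. At the unadjusted threshold 0 passed in either direction, 3 were higher and 9 lower by sign, and the median log2 difference was -0.38. Cx3cl1, which encodes fractalkine, the ligand of CX3CR1, was the 1 ligand of the 12 tested whose groups did not overlap, a share of 8.33% beside 21.3% of all genes tested. Cxcl11, under the filter at 0.09 TPM or less in every library, was also apart, with C5aR-/- lower. Cx3cl1 was listed at 21.7, 23.5 and 28.3 TPM in WT and 32.9, 30.7 and 32.3 TPM in C5aR-/- libraries. Its log2 difference of 0.38 (SE 0.15, limma unadjusted p = 0.0387, adjusted p = 0.319) is under 2-fold. Ccl2, the main ligand of CCR2, was at 146, 95.7 and 61.4 TPM in WT and 53.8, 268 and 218 TPM in C5aR-/- libraries. Its lowest value and its top 2 values were all in C5aR-/- libraries (log2 difference 0.62, SE 0.63, limma adjusted p = 0.693).

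The ligands of CCR1 were abundant and varied within groups more than between them. Ccl6 was listed at 820, 340 and 96.1 TPM in WT and 688, 348 and 93.2 TPM in C5aR-/- libraries (log2 difference -0.088, SE 0.96, limma adjusted p = 0.974). Ccl3 was at 248, 144 and 41.6 TPM in WT and 179, 77.0 and 29.0 TPM in C5aR-/- libraries (log2 difference -0.62, SE 0.83, limma adjusted p = 0.770), and Ccl9 had a log2 difference of 0.16 (SE 0.97, limma adjusted p = 0.957). In all 3 genes the order of the libraries within each group was that of the macrophage index. Ccl5, shared by CCR1 and CCR3, had a log2 difference of -0.57 (SE 0.50, limma adjusted p = 0.644). Rarres2, which encodes chemerin, the ligand that CCRL2 binds, was at 150, 166 and 141 TPM in WT and 170, 72.6 and 38.8 TPM in C5aR-/- libraries (log2 difference -0.94, SE 0.48, limma adjusted p = 0.427).

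For CXCR3, Cxcl10 was at 99.6, 111 and 119 TPM in WT and 115, 50.8 and 62.1 TPM in C5aR-/- libraries (log2 difference -0.61, SE 0.29, limma adjusted p = 0.401), and Cxcl9 at 1.36, 3.79 and 11.4 TPM in WT and 1.81, 2.24 and 4.68 TPM in C5aR-/- libraries (log2 difference -0.48, SE 0.62, limma adjusted p = 0.760). The groups overlapped in both. WT replicate 3, which had the most Cxcr3, also had the most Cxcl9 and Cxcl10. Ligands of CCR7 were scarce in these sorted cells: Ccl19 was above 0 in 2 libraries, Ccl21a in 1 and Ccl21b in 0, and the Ccl21 genes are near-identical copies whose reads cannot be assigned with certainty.

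Downstream of the receptors, 40 genes of Gi coupling, desensitization and migration were listed, and all 40 passed the filter. At the unadjusted threshold 1 was higher and 0 were lower, and the median log2 difference was -0.11. That gene, Rgs1, a regulator that shortens Gi signals from chemokine receptors, was listed at 519, 274 and 222 TPM in WT and 1006, 717 and 484 TPM in C5aR-/- libraries. The lowest C5aR-/- library lay just under the highest WT library, so the groups overlapped. The log2 difference was 1.15 (SE 0.39, limma unadjusted p = 0.0213, adjusted p = 0.266), and the call was lost in 5 of 14 alternatives, 4 of them the omission of a single library (0.90 without WT replicate 3 and 0.90 without C5aR-/- replicate 1, 1.05 without WT replicate 2 and 1.14 without C5aR-/- replicate 2). The remaining alternative was the macrophage index as covariate, where the difference was 0.87, under 2-fold (limma, unadjusted p = 0.000355, adjusted p = 0.0796). In 3 of the 40 (7.5%, beside 21.3% of all genes tested) the groups stayed apart: Prex1, a Rac exchange factor, was higher (log2 difference 0.55, SE 0.27, limma adjusted p = 0.402), and Grk5, a receptor kinase, and Rap1a, a small GTPase of adhesion, were lower (-0.73 and -0.62, limma adjusted p = 0.276 and 0.225). Of the 6 most abundant other genes of the list, the G protein subunit genes Gnai2 and Gnb2 had log2 differences of 0.090 (SE 0.12) and 0.19 (SE 0.16), and the GTPase genes Rac1, Cdc42 and Rap1b of 0.044 (SE 0.14), -0.23 (SE 0.20) and -0.40 (SE 0.26). Rgs10, another regulator of Gi signals, had one of -0.48 (SE 0.35). The groups overlapped in all 6.

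To describe which transcripts ran most like each receptor, the other protein-coding genes tested (12589) were ranked by Pearson correlation of log2(TPM + 1) over the 6 libraries. With 6 points that share group, library and cell composition, these coefficients are a description. For Cx3cr1 the closest were Dusp14, a phosphatase gene (r = 0.998), Ggta1, a galactosyltransferase gene (r = 0.994), and Milr1, an inhibitory receptor gene (r = 0.994). Dusp14 was listed at 8.31, 6.56 and 8.68 TPM in WT and 25.5, 16.1 and 12.6 TPM in C5aR-/- libraries, the same order of libraries within the C5aR-/- group as Cx3cr1. For Ccrl2 the closest were Bach1, a heme-responsive repressor gene (r = 0.998), Fbxo33 (r = 0.997) and Capzb, an actin capping gene (r = 0.996). For Cxcr3 they were Pnisr (r = 0.996), Irf9, a component of interferon signaling (r = 0.993), and Psmb1, a proteasome subunit gene (r = 0.992). Ccr1 ran closest to Arl8a (r = 0.982), Arhgap24 (r = 0.981) and Sema6b (r = 0.980), Ccr7 to Atp6ap1 (r = 0.984), Aqp5 (r = 0.975) and Trp53inp2 (r = 0.972), and Ccr2 to Ddx11 (r = 0.985), Adprm (r = 0.952) and Glmp (r = 0.952).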

How the data were processed

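RNA of TAMs was measured in 6 libraries, 3 per group, assigned by their labels. The submitters' processing notes name mm10, fastp, HISAT2, StringTie, RSEM and DESeq2, without versions. The authors deposited TPM values per gene, while their methods speak of FPKM, and each library summed to 1000000. Depth and counting error are therefore unknown, and errors given here come from the spread between libraries. A value of 0 may mean that estimation failed. The deposited table also holds the authors' group means, which equal the means of the 3 libraries and were not used. Count tests could not be run on TPM.

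Symbols and positions came from GENCODE M21 (GRCm38). Tests used limma 3.58.1 in R 4.3.3 (lmFit, eBayes with trend, two-sided, Benjamini-Hochberg) on log2(TPM + 1), checked on simulated data, and two-sided exact tests used scipy 1.17.1. Named genes are the 7 receptors, C5ar1, the other receptors, ligands and signaling genes past the unadjusted threshold plus up to 6 of each list by mean TPM, and the 3 genes most like each receptor. Cx3cl1, Cxcl10, Cxcl11, Prex1, Grk5, Rap1a, Ccl19, Ccl21a, Ccl21b, Csrnp1, Cxcl9, Ccr8, Ccr1l1 and Cxcr1 were named after their values were seen. The receptors and gene lists were chosen with earlier results of these data known.

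The fit was repeated with each library left out, with the replicate number as a block, with the macrophage index as covariate, after quantile normalization or median-of-ratios scaling, with eBayes without trend, with 0.1 as pseudocount, and with the filter dropped or raised to 5 TPM. The values of 1 other chemokine receptor are not reported here.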

Additional observations from a re-analysis of the deposited data

How the results depend on the processing

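TPM values carry no depth, so low receptors such as Ccr3 and Cxcr3 have an unknown counting error, and with 3 libraries per group an exact test cannot go below 0.1. Cx3cr1 passed the unadjusted threshold in 14 of 14 alternatives, with log2 differences from 1.24 to 1.97 and adjusted p from 0.0806 to 0.555.

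With the macrophage index as covariate Ccr1 turned to -0.18, Ccrl2 moved from -0.20 to -0.72 and Ccr7 from 0.65 to 0.37. Leaving out single libraries gave ranges of -0.18 to 0.50 for Ccr1, -0.046 to 0.36 for Ccr2, 0.31 to 1.13 for Ccr7, 1.24 to 1.97 for Cx3cr1, -1.10 to -0.13 for Cxcr3 and -0.83 to 0.61 for Ccrl2. Ccr1 turned to -0.011 without WT replicate 2, -0.18 without WT replicate 3, -0.022 without C5aR-/- replicate 1 and -0.098 without C5aR-/- replicate 2. Ccr2 turned to -0.034 without WT replicate 2 and -0.046 without C5aR-/- replicate 2, and Ccrl2 to 0.24 without WT replicate 1 and 0.61 without C5aR-/- replicate 3. Ccr7 reached 1.13 without C5aR-/- replicate 3, and Cxcr3 -1.10 without WT replicate 1. Receptors of the set past the unadjusted threshold then numbered 1 to 2. At a TPM of at least 5 Cxcr3 was not tested.

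Of all genes, 0 passed the adjusted threshold, 2 with eBayes without trend and 0 to 356 with a library left out, the 356 without C5aR-/- replicate 1. At the unadjusted threshold 733 passed, 475 at a TPM of at least 5 and 567 to 1266 with a library left out. Other chemokine receptors past it numbered 2 as reported, 1 with no filter, 1 with quantile normalization, 1 with the covariate, 0 at a TPM of at least 5 and 1 to 2 with a library left out. Ligands numbered 0 as reported, 2 with the covariate and 0 to 2 with a library left out (0 to 1 at the adjusted threshold), and signaling genes 1 and 0 to 1. The causes of these changes were not tested, except that fewer genes were tested at the higher filter. The Cx3cr1 difference relative to the macrophage index kept its direction in 8 of 8 alternatives.

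With the replicate number as a block, 811 of all genes and 1 receptor of the set, Cx3cr1 (log2 difference 1.63, unadjusted p = 0.00431, adjusted p = 0.169, limma), passed the unadjusted threshold. Deviations from the group means had correlations of 0.19, -0.011 and 0.27 between same-numbered libraries. Between libraries of different number the correlations ran from -0.23 to 0.093. The labels state no pairing, and the numbers were not taken to pair the libraries. Whether same-numbered libraries share a batch was not tested. Without the block the Ccr7 unadjusted p was 0.214 and with it 0.0168 (limma), at a difference under 2-fold in both.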
